A study of Rattus norvegicus with 6 samples.

Results

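The 10 genes described here, Car1, Phospho1, Tfrc, Kel, Ctse, Tmcc2, Xpo7, Rnf123, Eif2ak1 and Stradb, are genes of late red cell precursors that were chosen by their lower values in the blood of MCAO rats on these same arrays. They are 10 of the 14217 genes that the annotation of the array names, and they have 17 of the 31042 probe sets tested (a probe set is a group of short probes that measures 1 transcript). The study asked how an ischemic infarction of the brain alters gene expression in whole blood. Middle cerebral artery occlusion (MCAO) was performed in male Sprague-Dawley rats, 8 weeks old, in which a silicone-coated thread closed the origin of the left middle cerebral artery and was later withdrawn. Sham rats were of the same sex, strain and age and received an uncoated thread through the same operation, so that they too went through surgery and ligation of the neck arteries. Blood was drawn from the heart 24 h after reperfusion, and total RNA of the 3 MCAO rats and the 3 sham rats was hybridized to 1 GeneChip rat genome array per rat. The MCAO rats were picked from a larger operated group by the size of their infarct, and they stand for this size of infarct only. All values are log2 expression values that the authors normalized with the DFW (Distribution Free Weighted) method, which contracts differences between arrays very unequally over probe sets. Differences are therefore differences on the DFW scale and not fold changes of the signal. Where a difference is called the largest or the smallest, this refers to the DFW scale and does not rank changes in RNA. Levels of different probe sets were not set against each other. The array medians lay between 5.56434 and 5.56441, and with 6 arrays the precision is limited.

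Reticulocytes are the youngest red cells in blood. They have lost their nucleus but still hold ribosomes, mitochondria and the messenger RNAs of globin, haem and membrane proteins, and they lose these over a short time while transferrin receptors are shed and organelles are cleared by ubiquitination and autophagy. In rodents they form a visible part of the circulating red cells, and blood that is not depleted of globin RNA carries much erythroid RNA. In bulk blood, fewer reticulocytes and less RNA per reticulocyte cannot be told apart. The erythroid character of the samples was checked with 10 marker genes, of which 8 were measured. Hbb, which encodes beta-globin, read 14.21145 in each of the 6 rats, Alas2, the first enzyme of erythroid haem synthesis, read between 12.99016 and 12.99017, and Hemgn, a nuclear protein of erythroid precursors, read between 10.18266 and 10.18393. Hbb and Alas2 hardly varied between rats on the DFW scale, and the 10 genes varied far more than either. The other markers measured varied more than most probe sets. Their range percentiles over all probe sets were 98.8 (Klf1), 98.4 (Rhag), 97.5 (Ahsp), 97.0 (Hemgn), 96.5 (Slc4a1) and 93.9 (Epb42). The lowest range percentile of the 10 genes was 97.7. The ranges of the 10 genes over the 6 rats lay between 0.00177 and 0.0202 with a median of 0.00891, against a median of 6.55e-06 over all probe sets. All 10 were among the 1000 probe sets with the widest range, as were 207 of the 216 probe sets that were called in either direction.

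The upstream sequences of the genes are shown because the erythroid factors GATA1, KLF1 and NF-E2 bind known motifs in many red cell promoters. RefSeq windows of 250 bases before the start (GRCr8) were matched for 8 of the 10 genes, which left Car1 and Xpo7. The start is that of the RefSeq promoter table, which names no transcript. It was the outer end of the gene in 3 of the 8 (Phospho1, Tfrc and Tmcc2) and lay inside the gene in the other 5, by 45 to 126 bases in Ctse, Eif2ak1, Rnf123 and Stradb and by 524 bases in Kel, whose window thus lies wholly within the gene. The motifs searched on both strands were, for GATA, the letters GATA preceded by A or T and followed by A or G, for KLF, CCNCNCCC, and for NF-E2, TGACTCA. None of the motifs overlaps another in the windows shown. The windows of Kel (chr4:71551774-71552023, minus strand), Phospho1 (chr10:81258560-81258809, plus strand) and Tmcc2 (chr13:46383863-46384112, minus strand) hold the matches described next, which are in capitals.
Kel: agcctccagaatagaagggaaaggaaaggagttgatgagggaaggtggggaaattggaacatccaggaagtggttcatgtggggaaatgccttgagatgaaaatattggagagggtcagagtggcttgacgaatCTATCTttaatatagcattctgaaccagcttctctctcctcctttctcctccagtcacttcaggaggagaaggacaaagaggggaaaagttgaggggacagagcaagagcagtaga
Phospho1: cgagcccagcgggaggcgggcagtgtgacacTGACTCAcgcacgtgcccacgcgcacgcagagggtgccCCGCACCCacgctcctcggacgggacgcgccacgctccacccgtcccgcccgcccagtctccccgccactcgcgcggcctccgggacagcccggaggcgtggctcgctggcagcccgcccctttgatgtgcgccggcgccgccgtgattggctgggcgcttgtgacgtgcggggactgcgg
Tmcc2: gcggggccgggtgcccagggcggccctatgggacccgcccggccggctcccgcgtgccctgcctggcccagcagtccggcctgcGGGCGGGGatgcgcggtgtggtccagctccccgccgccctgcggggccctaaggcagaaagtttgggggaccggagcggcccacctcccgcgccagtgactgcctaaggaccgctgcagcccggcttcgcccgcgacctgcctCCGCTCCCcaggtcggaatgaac
Kel held the GATA motif, on the reverse strand, with 110 bases between it and this internal start, and it was the only window of the 8 with this motif, which 27.0% of all 33469 windows and 16 of 48 matched windows of other late erythroid genes held. The NF-E2 motif was found in Phospho1, with 212 bases between it and the start, and in no other of the 8, against 4.05% of all windows and 2 of the 48. The KLF motif was found in 6 of the 8 (Phospho1, Tfrc, Tmcc2, Rnf123, Eif2ak1 and Stradb), against 42.8% of all windows and 37 of the 48. In Tmcc2 it occurred at 2 places, with 158 and 15 bases between it and the start, and in Phospho1 at 1, with 173. The 8 windows were rich in G and C, with 46.8% to 76.4% and a median of 62.6%, against a median of 51.2% over all windows, and a motif made of C bases is met more often in such windows. A match is a description of letters and not a binding site.

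Each gene was represented by its probe set with the highest mean. At these probe sets all 10 genes were lower in the mean of the MCAO rats, and all 10 were called lower by Rank Products at a false discovery rate (FDR) under 0.05, with FDRs between 0.00111 for Car1 and 0.0422 for Rnf123. This is what they were selected on, so it is a description and no test. Over all probe sets 0.561% were called lower and 0.135% higher. Just outside the threshold lay Ank1, the ankyrin that anchors the red cell membrane skeleton, with an FDR of 0.0529. The median log2 difference (MCAO minus sham) of the 10 genes was -0.00408, against 6.72e-08 over all probe sets. The number of calls depended on single rats, in the 10 genes and over all probe sets. Without sham rat 2, and likewise without sham rat 3, only Car1 was called of the 10, where 0.0677% and 0.0419% of all probe sets were still called lower. Without sham rat 1 there were 3 of the 10 and 0.139% of all probe sets. Without MCAO rat 3 there were 6 of the 10, although the share of all probe sets rose to 1.09%. limma called none of the 10 and none of all probe sets after adjustment, with 1150 probe sets at an unadjusted p under 0.05.

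**Figure D1:**
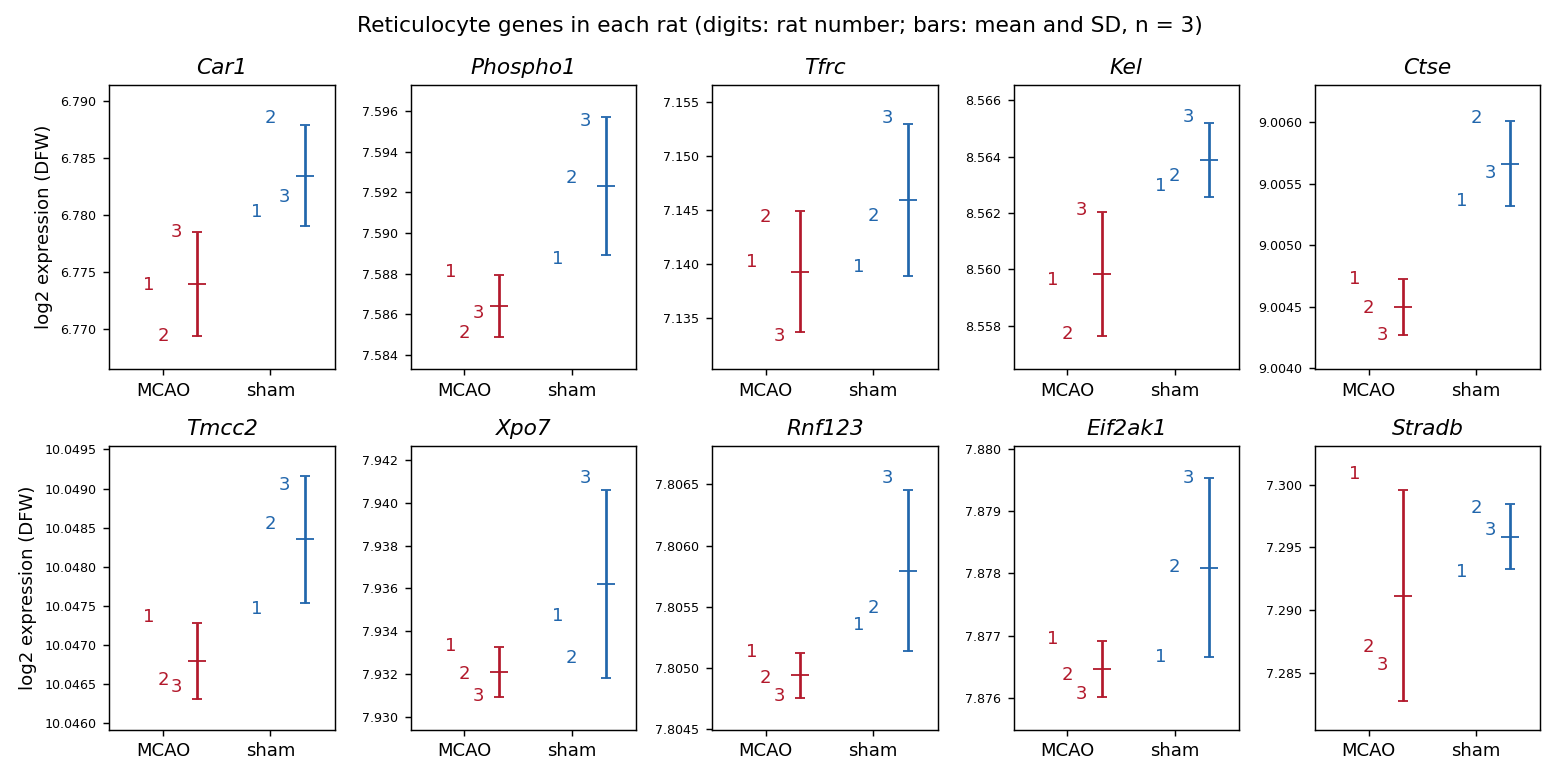
Log2 expression (DFW) of the 10 reticulocyte genes in each rat, each gene on its own axis, with MCAO rats in red on the left and sham rats in blue on the right. Digits are rat numbers and bars show mean and SD (n = 3). All MCAO rats lie below all sham rats in Car1, Phospho1, Kel, Ctse, Tmcc2 and Rnf123, and the groups overlap in Tfrc, Xpo7, Eif2ak1 and Stradb.

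In 6 of the 10 genes the highest MCAO rat was still below the lowest sham rat, and in none was the lowest MCAO rat above the highest sham rat. Over all probe sets, 3.6% had every MCAO rat below and 4.82% every MCAO rat above. The 6 genes were Car1, Phospho1, Kel, Ctse, Tmcc2 and Rnf123, as the plot of the values in each rat shows. Since the genes were selected on the same values, the share is set beside the background and nothing is read from it.

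Iron uptake and the sensing of haem are served by Tfrc and Eif2ak1. Tfrc encodes transferrin receptor 1, through which red cell precursors take up iron, and lies on chromosome 11 (81668478 to 81690318, GRCr8). It read 7.14022, 7.14439 and 7.13337 in MCAO rats 1, 2 and 3, against 7.13979, 7.14449 and 7.15354 in sham rats 1, 2 and 3. The groups overlapped, since sham rat 1 lay below MCAO rats 1 and 2, and the low end was MCAO rat 3 and the high end sham rat 3. The log2 difference was -0.00661 (SE 0.00485). Eif2ak1, on chromosome 12 (15824431 to 15858266), encodes the haem-regulated kinase of eIF2alpha, which slows globin translation when haem is short. Its values were 7.87695, 7.87637 and 7.87607 in MCAO rats and 7.87665, 7.87810 and 7.87953 in sham rats. Sham rat 1 again fell among the MCAO rats, below MCAO rat 1, whereas sham rats 2 and 3 lay above all 3. The difference was -0.00163 (SE 0.000818), and after quantile normalization its sign turned (0.000207).

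The red cell surface and the carriage of carbon dioxide are represented by Kel and Car1. Kel, on chromosome 4 (71534882 to 71552297), encodes the Kell blood group glycoprotein, a membrane endopeptidase that is linked to the XK protein. It read 8.55963, 8.55772 and 8.56211 in MCAO rats, against 8.56294, 8.56332 and 8.56539 in sham rats. The groups did not overlap, and MCAO rat 3 came within 0.000827 of sham rat 1. The difference was -0.00406 (SE 0.00139). Car1, on chromosome 2 (88550681 to 88593454), encodes carbonic anhydrase 1, the abundant enzyme that hydrates carbon dioxide in red cells. It read 6.77387, 6.76945 and 6.77853 in MCAO rats and 6.78028, 6.78853 and 6.78155 in sham rats. All MCAO rats were below all sham rats, and the order within groups was unlike that of most of the other genes, with MCAO rat 3 the highest of its group and sham rat 2 the highest of all 6. Its difference of -0.00950 (SE 0.00345) was the largest in size among the 10 on the DFW scale.

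Phospho1 and Ctse encode a phosphatase and a protease. Phospho1, on chromosome 10 (81258810 to 81266345), releases phosphate from phosphoethanolamine and phosphocholine and is best known from the mineralization of bone. It had 7.58806, 7.58508 and 7.58604 in MCAO rats, against 7.58874, 7.59269 and 7.59554 in sham rats. The groups were separated by a gap of 0.000684 between MCAO rat 1 and sham rat 1, and the difference was -0.00593 (SE 0.00203). Ctse, on chromosome 13 (45644168 to 45666722), encodes cathepsin E, an aspartic protease found in human red cell membranes and in the stomach. Its values were 9.00473, 9.00449 and 9.00427 in MCAO rats and 9.00536, 9.00604 and 9.00559 in sham rats. Ctse had the cleanest separation of the 10 relative to the spread, with a difference of -0.00117 (SE 0.000225), or -4.00 SDs within groups.

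Nuclear export and ubiquitination belong to the last steps of red cell maturation, when the nucleus is condensed and expelled and most proteins are removed. Xpo7, on chromosome 15 (52151743 to 52237729), encodes exportin 7, a nuclear export receptor that mouse erythroblasts need to condense the nucleus. It read 7.93334, 7.93202 and 7.93099 in MCAO rats, against 7.93473, 7.93278 and 7.94113 in sham rats. Sham rat 3 stood far above the other 5 rats, and sham rat 2 fell below MCAO rat 1, so that the groups overlapped. The difference was -0.00410 (SE 0.00246). Rnf123, on chromosome 8 (117618776 to 117646400), encodes the catalytic subunit of a ubiquitin ligase complex that targets the cell cycle inhibitor p27. Its values were 7.80513, 7.80492 and 7.80477 in MCAO rats and 7.80535, 7.80549 and 7.80655 in sham rats. The groups were separated, and 5 of the 6 rats lay close together with sham rat 3 above them. The difference was -0.000856 (SE 0.000368), the smallest in size of the 10 on the DFW scale.

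Tmcc2 and Stradb remain. Tmcc2, on chromosome 13 (46346177 to 46383862), encodes a membrane protein of the endoplasmic reticulum with coiled coils. It read 10.04736, 10.04656 and 10.04647 in MCAO rats, against 10.04746, 10.04855 and 10.04905 in sham rats. The groups were separated only by 0.000102, the distance from MCAO rat 1 to sham rat 1, and the difference was -0.00156 (SE 0.000515). After quantile normalization the difference of Tmcc2 was 0 (Rank Products FDR = 0.865). Stradb, on chromosome 9 (67908277 to 67927224), encodes a pseudokinase that binds and activates the kinase LKB1. Its values were 7.30082, 7.28707 and 7.28563 in MCAO rats and 7.29306, 7.29816 and 7.29637 in sham rats. Here MCAO rat 1 was the highest of all 6 rats while MCAO rats 2 and 3 were the lowest, and the difference of -0.00470 was smaller in size than its SE of 0.00477.

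Of the 10 genes, 5 had more than 1 probe set, which gave 7 further probe sets. None of the 7 was called and none separated the groups. The mean of the MCAO rats was lower in 5 of them and higher in the other 2. Their ranges over the 6 rats were 1.31e-05 to 0.00175, narrower than those of all 10 main probe sets. The second probe set of Eif2ak1 was closest to the first, with 7.47829, 7.47772 and 7.47774 in MCAO rats, against 7.47816, 7.47854 and 7.47939 in sham rats, and a difference of -0.000782 (SE 0.000385). Sham rat 3 was again the highest and MCAO rat 1 again lay above sham rat 1, while the lowest was MCAO rat 2 in place of MCAO rat 3. The other probe set of Tfrc read 5.32230, 5.32260 and 5.32148 in MCAO rats and 5.32200, 5.32229 and 5.32323 in sham rats. It repeated the order within each group of the main probe set of Tfrc, with a difference of -0.000380 (SE 0.000470). The further probe sets of Kel, Xpo7 and Rnf123 differed least, with -1.63e-05 for Kel, -8.99e-05 and 5.77e-05 for Xpo7, and 2.55e-06 and -1.22e-05 for Rnf123.

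**Figure D2:**
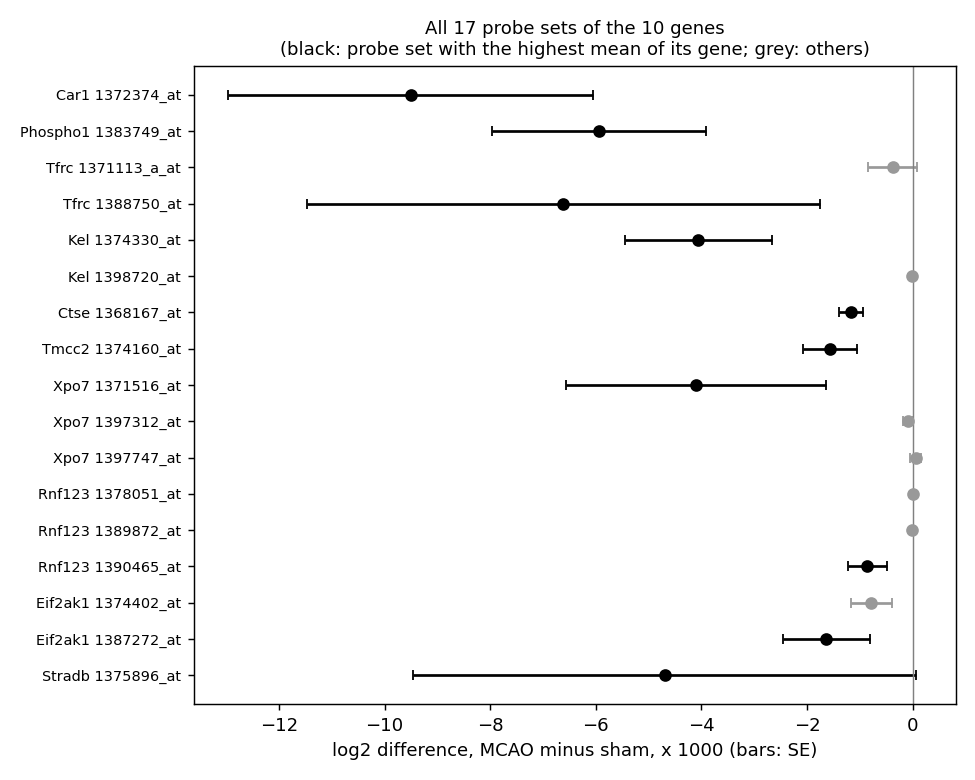
Log2 difference (MCAO minus sham, times 1000 on the horizontal axis) of all 17 probe sets of the 10 genes, with bars for the SE from limma. Black points are the probe sets with the highest mean of their gene, all below 0, and grey points are the 7 others, of which 5 are below and 2 above 0.

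The order of the rats within their groups was not used in choosing the genes as such, although the values that set it were. Among MCAO rats, rat 3 was the lowest in 7 of the 10 genes (41.9% of all probe sets) and rat 1 the highest in 7 (45.8%). Sham rat 1 was the lowest sham rat in 9 of the 10, against 34.0% of all probe sets, and sham rat 3 was the highest in 7, against 35.5%. Sham rat 3 was the highest of all 6 rats in 7 genes, against 17.7% of all probe sets. Scaled to the mean and SD of each gene over the 6 rats, the mean of the 10 genes was -0.26, -0.86 and -0.84 in MCAO rats 1, 2 and 3, against -0.0067, 0.67 and 1.30 in sham rats 1, 2 and 3. The sham rats were thus spread more widely than the MCAO rats, and sham rat 1 stood nearer to MCAO rat 1 than to sham rat 2.

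**Figure D3:**
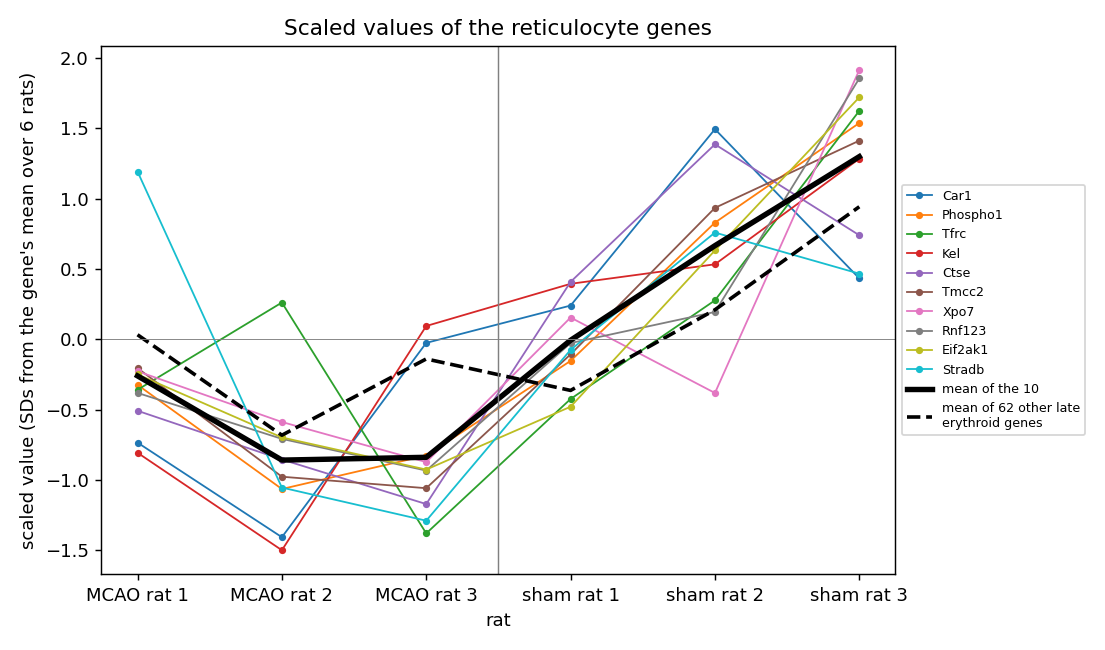
Values of the 10 reticulocyte genes in the 3 MCAO rats (left) and the 3 sham rats (right), each gene scaled to its own mean and SD over the 6 rats. Lines only join the points of a gene. The thick line is the mean of the 10, between -0.86 and -0.26 in MCAO rats and between -0.0067 and 1.30 in sham rats, and the dashed line is the mean of 62 other late erythroid genes.

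Co-variation was described within groups, so that the difference between the means of MCAO and sham rats did not enter. The 10 genes were still chosen on these same values, and their calls depended on single rats. The correlations are therefore not independent of that choice, and they are a description only. For each gene the group mean was subtracted, and Pearson's r was taken over the 6 rats, which leaves 4 residual degrees of freedom. The values of all genes come from the same 6 arrays, normalized together, so that r also holds what the arrays share. The median r over the 45 pairs of the 10 genes was 0.458, with a range of -0.469 to 0.969. Of the 45 pairs, 38 (84.4%) had an r over 0, against 50.4% of all pairs of genes, and 12 (26.7%) had an r over 0.7, against 12.0%. The closest pairs were Phospho1 and Tmcc2 (0.969), Phospho1 and Eif2ak1 (0.965), Tmcc2 and Eif2ak1 (0.949), and Xpo7 and Rnf123 (0.949). The correlation of a gene with the mean of the 9 others was 0.993 for Phospho1, 0.983 for Tmcc2, 0.957 for Eif2ak1 and 0.802 for Rnf123. It was 0.585 for Tfrc, 0.577 for Xpo7 and 0.508 for Stradb. Ctse (0.401), Kel (0.294) and Car1 (0.037) went least with the rest. Car1 ran against Xpo7 (-0.469) and Tfrc (-0.462), so that the 10 genes did not vary as 1 block. The median of 0.458 moved between 0.270 and 0.664 when single rats were left out. It was 0.259 after quantile normalization, over the 36 pairs that then had a value, which are those without Tmcc2. In the 14 gene lists described below, the same median ran from -0.034 to 0.947. It was above that of the 10 genes in every marker list of other blood cells, namely B cell (0.580), monocyte (0.615), neutrophil (0.759), T cell (0.855) and platelet (0.947). In every other list it was below, with 0.425 for haem and 0.381 for the other late erythroid genes.

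**Figure D4:**
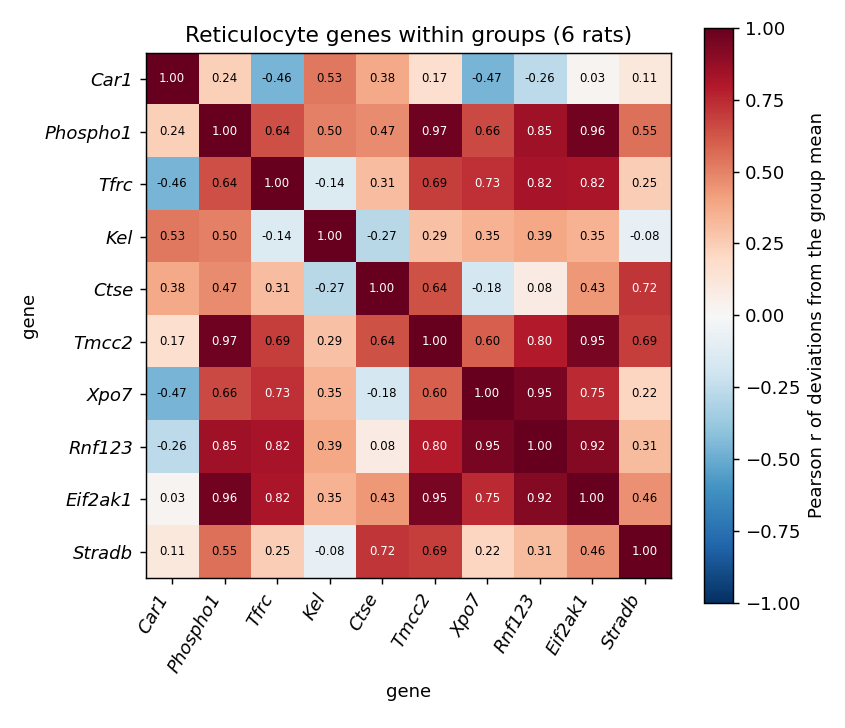
Pearson's r between the 10 reticulocyte genes over 6 rats after the group mean of each gene was subtracted, on a colour scale from -1 to 1. Phospho1, Tmcc2, Rnf123 and Eif2ak1 form a block with r of 0.796 to 0.969, and Car1 has r below 0 with Tfrc, Xpo7 and Rnf123.

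The other erythroid genes were taken from a list of 83 late erythroid genes, of which 62 were measured and none is among the 10. By Rank Products none of the 62 was called lower, where 0.561% of all probe sets were, and 1 was called higher. At an unadjusted p under 0.05, Rank Products gave 31 of the 62 lower and 9 higher (6.57% and 4.78% of all probe sets), and limma gave 4 lower and none higher (1.59% and 2.11%). Rank Products places the probe sets that vary most first and last, and the shares of all probe sets were not matched for range. No excess is therefore read from the counts of Rank Products. In the mean, 47 of the 62 were lower and 15 higher in MCAO rats (46.6% of all probe sets were lower). With the arrays centred on their medians, 31 were lower and 31 higher. After quantile normalization 23 were lower and 15 higher, and the rest had a difference of 0. The median log2 difference of the 62 was -2.64e-05, which turned to 3.40e-06 with the arrays centred and was 0 after quantile normalization. That of the 10 genes was -0.00405 with the arrays centred and -0.00273 after quantile normalization. All MCAO values were below all sham values in 6 of the 62 (9.68%, against 3.6% of all probe sets), and in none above. These 6 included Fam210b, a mitochondrial protein of erythroid haem synthesis, Mxi1, an antagonist of Myc, and Mkrn1, a ubiquitin ligase. The others were Ube2o, a ubiquitin-conjugating enzyme that removes ribosomes in mouse reticulocytes, Slc25a39, a mitochondrial carrier, and Tfr2, the other transferrin receptor. The differences were -0.000611 for Fam210b, -0.000479 for Mxi1, -0.000290 for Ube2o, -7.61e-05 for Mkrn1, -1.80e-05 for Slc25a39 and -1.47e-07 for Tfr2. Those of Slc25a39 and Tfr2 were smaller in size than the spread of the array medians (5.56434 to 5.56441). Tfr2 read 5.21037 in every rat. The one gene called higher was Hba-a3, an alpha-globin gene whose near-identical copies the probe set may also read, with 12.12486, 12.12367 and 12.08532 in MCAO rats and 12.12438, 12.07816 and 12.08648 in sham rats. Sham rat 1 was as high as MCAO rats 1 and 2, so the groups overlapped, and the difference was 0.015 (SE 0.018, Rank Products FDR = 0.0281). The call was lost without MCAO rat 1 (FDR = 0.198), without MCAO rat 2 (0.609) and without sham rat 2 (0.374).

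Among MCAO rats, rat 2 was the lowest in 34 of the 62 and rat 3 in 19. Sham rat 1 was the lowest sham rat in 43 of the 62 and sham rat 3 the highest in 48. The mean of the 62 scaled genes was 0.03, -0.68 and -0.14 in MCAO rats, against -0.36, 0.21 and 0.94 in sham rats, so that the MCAO rats and the sham rats stood in the same order as in the 10 genes within their groups, but the groups overlapped in this mean while they did not in that of the 10, which were selected on this difference. For the correlation within groups, the deviations of each gene from its group means were scaled anew and then averaged over the genes. The average of the 62 and that of the 10, which were chosen on these same arrays, correlated at r = 0.943 (6 rats, 4 residual degrees of freedom).

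**Figure D5:**
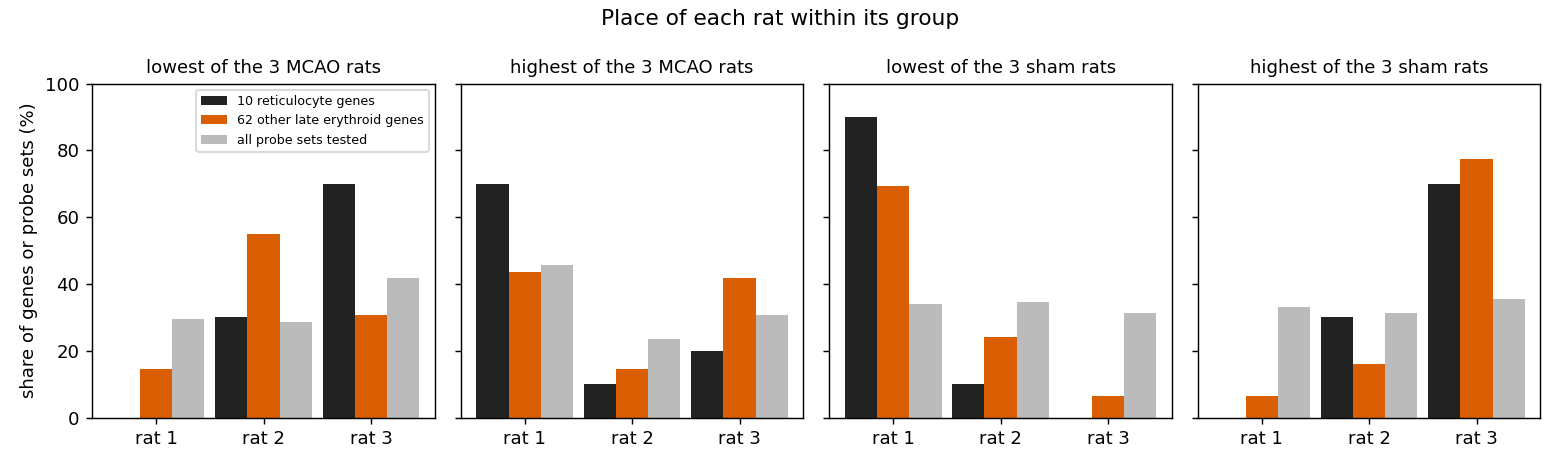
Share of genes (percent) in which each rat is the lowest or the highest of its group, in the 10 reticulocyte genes (black), 62 other late erythroid genes (orange) and all 31042 probe sets (grey), with MCAO rats in the left panels and sham rats in the right ones. Sham rat 1 is lowest in 9 of the 10 and 43 of the 62, and sham rat 3 is highest in 7 of the 10 and 48 of the 62.

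Among the neighbours of the 10 genes by function, Rank Products called Asns lower and Hba-a3 higher and no other gene. Of all probe sets 0.561% were called lower and 0.135% higher. At an unadjusted p under 0.05, the shares of all probe sets were 6.57% lower and 4.78% higher by Rank Products. By limma they were 1.59% and 2.11%. These shares are set beside the counts here and below. They were not matched for the range of the probe sets, on which Rank Products depends, so no excess is read from its counts. Among 12 measured genes of iron uptake and storage, to which Tfrc belongs, none was called by Rank Products, with 5 lower and 1 higher at an unadjusted p under 0.05 and none by limma. The largest differences were those of Pcbp1 (-0.00103, SE 0.000487) and Pcbp2 (-0.000548), which carry iron to ferritin, and Steap3, the ferrireductase of erythroid cells, differed by -2.41e-06. Slc25a37, the mitochondrial iron importer, differed by -6.95e-05 (SE 0.000370). Pcbp2 turned to 0.00251 after quantile normalization. Of 16 genes of haem synthesis and handling, 14 were lower in the mean (7 with the arrays centred) and none was called (6 lower and none higher at an unadjusted p of Rank Products, none by limma). Urod, an enzyme of the haem pathway, differed by -0.000911 (SE 0.000846), and was called lower after quantile normalization (-0.00783, FDR = 0.0246) and without MCAO rat 1 (FDR = 0.0454). Blvrb, a biliverdin reductase, differed by -0.000782 (SE 0.000605) and Alas2 by -2.08e-06. Of 7 globin genes, 5 were higher in the mean (6 with the arrays centred), and Hba-a3 was the one called.

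The red cell membrane and blood group list, which holds the partners of Kel, had 14 of 18 genes lower in the mean (11 with the arrays centred) and none called, with 10 lower and 2 higher at an unadjusted p under 0.05 by Rank Products and none by limma. Epb41, a linker of the membrane skeleton, read 10.22619, 10.22614 and 10.22642 in MCAO rats, against 10.22621, 10.22768 and 10.22877 in sham rats (difference -0.00130, SE 0.000703, FDR = 0.0800). The 3 MCAO rats and sham rat 1 stood together, and sham rats 2 and 3 stood above them. Rhag, the Rh-associated glycoprotein, differed by -0.00114 (SE 0.000696, FDR = 0.0710) and Slc4a1, the anion exchanger band 3, by -0.000541 (SE 0.000279, FDR = 0.151). Xk, to whose protein the Kell glycoprotein is bound, differed by -9.73e-05 (SE 7.23e-05). Car2, the paralogue of Car1 in red cells, differed by -6.73e-06 (SE 5.66e-05).

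Of 13 genes around the eIF2alpha kinases, 1 was called lower, namely Asns, the asparagine synthetase that is induced through ATF4. Asns read 7.39312, 7.37633 and 7.37721 in MCAO rats, against 7.38558, 7.39467 and 7.39556 in sham rats, with a difference of -0.00972 (SE 0.00595, Rank Products FDR = 0.00292). The groups overlapped, since MCAO rat 1 lay above sham rat 1, and the call was lost without sham rat 2 (FDR = 0.108) or sham rat 3 (0.122). Atf4 itself differed by -8.77e-05 (SE 0.000977). Among 13 genes of ubiquitination and organelle clearance, to which Rnf123 is related, none was called (8 lower and 2 higher at an unadjusted p of Rank Products, 2 lower by limma). In 3 of these 13 (Ube2o, Mkrn1 and Gid8, 23.1%) all MCAO values were below all sham values, against 3.6% of all probe sets. Ube2o and Mkrn1 are also in the late erythroid list and were counted there, so they are no second observation. Fbxo7, a ubiquitin ligase subunit, differed by -0.000685 (SE 0.000308), Gid8 by -0.000644 (SE 0.000267), and Bnip3l, the receptor that clears mitochondria from reticulocytes, by -3.62e-06. Among 17 erythroid transcription factors and genes of erythropoietin signalling, none was called (7 lower and 4 higher at an unadjusted p of Rank Products, 1 lower by limma), with Foxo3 at -0.00110 (SE 0.000876) and Klf1 at -0.000818 (SE 0.00139).

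Of 26 measured paralogues and partners of the 10 genes, none was called, with 6 lower and 1 higher at an unadjusted p under 0.05 by Rank Products and 1 lower by limma. The largest differences among them were those of Ubac1 (-0.000551), the partner of the Rnf123 protein in its ubiquitin ligase, and Xpo6 (-0.000290), the export receptor of actin. Ranbp17, the paralogue of Xpo7, differed by 1.81e-06, Tmcc1 and Tmcc3 by 1.47e-06 and 2.69e-07, and Strada by -1.79e-06. In these 4 the differences were smaller than the median range of all probe sets (6.55e-06).

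Of all other named genes, 713 had a range of at least 0.001 and were ranked by their Pearson's r, over the 6 rats, to the mean of the 10 scaled genes (a measure over 3 MCAO and 3 sham arrays). The 6 most alike were Ell2 (0.995), Anp32e (0.991), Furin (0.989), Hadhb (0.983), Gda (0.977) and Kpna1 (0.976), and 6.31% of the 713 had an r of at least 0.9. Ell2, an elongation factor of RNA polymerase II, read 8.92052, 8.91967 and 8.91982 in MCAO rats and 8.92092, 8.92220 and 8.92280 in sham rats, in the same order of rats as Phospho1. All of the 6 but Furin were called lower by Rank Products. This r includes the difference between the groups, on which the 10 were selected.

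Markers of other blood cells were read in the same rats, since the share of 1 cell type in blood depends on the others. All 5 B cell markers (4 with the arrays centred) and all 10 T cell markers (5 with the arrays centred) were lower in the mean. Of the B cell markers 3 (Ms4a1, Fcmr and Cr2) were called lower, and of the T cell markers 2 (Cd3g and Tcf7). Over all probe sets 0.561% were called lower and 0.135% higher. Cr2 (FDR = 0.046) and Cd3g (FDR = 0.0482) lay near the threshold. The largest difference of the called B and T cell markers was that of Tcf7, a T cell transcription factor, with -0.00603 (SE 0.00400, FDR = 0.0204). Ms4a1, which encodes CD20, differed by -0.00509 (SE 0.00229, FDR = 0.00448). The mean level of the B cell list ranged over 6.43477 to 6.43723 in MCAO rats and 6.43735 to 6.43943 in sham rats, and that of the T cell list over 6.32307 to 6.32564 in MCAO rats and 6.32499 to 6.32675 in sham rats. Of 9 neutrophil markers, 7 were higher in the mean (8 with the arrays centred), with a mean level of 6.40218 to 6.43005 in MCAO rats and 6.41104 to 6.41533 in sham rats. MCAO rat 3 set the upper end of this range. Csf3r, the G-CSF receptor, was called higher (0.0131, SE 0.0187, FDR = 0.0333) and S100a9 was called lower (FDR = 0.0425) although its mean was higher in MCAO rats by 0.00271. For 9 platelet markers the range was 8.68042 to 8.68125 in MCAO rats and 8.68036 to 8.68085 in sham rats, with 8 higher in the mean (also with the arrays centred), and for 7 monocyte markers it was 6.64713 to 6.65800 in MCAO rats and 6.65052 to 6.65569 in sham rats, with 4 higher (5 with the arrays centred). The largest differences among them were those of Csf1r (-0.00132, SE 0.00159) and Lyz2 (0.000289, SE 0.0216) for monocytes and of Treml1 (0.000450, SE 0.000477) and Ppbp (0.000205, SE 0.000176) for platelets. None of these 16 was called by Rank Products, with 3 lower and 5 higher at an unadjusted p under 0.05 and none by limma. The lowest DFW value of any probe set was 4.93, so no marker could read 0, and whether each marker was detected was not tested. Within groups, the average of the scaled deviations of the 10 genes correlated with that of the B cell list at r = 0.059, the T cell list at -0.122, the neutrophil list at -0.300, the monocyte list at -0.238 and the platelet list at 0.270, against 0.943 for the other late erythroid genes. It was 0.990 for the membrane, 0.942 for the haem, 0.820 for the ubiquitin and 0.746 for the iron list. It was 0.718 for both the globin and the transcription factor list, 0.665 for the eIF2alpha list and 0.381 for paralogues and partners. Several of these lists share genes, and no background over other gene sets was computed. The part of the other blood cells in the lower values of the 10 genes was not tested.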

How the data were processed

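Whole-blood RNA of 3 MCAO and 3 sham rats was hybridized to 1 GeneChip array per rat, and the deposited log2 values were normalized by the authors over the 6 arrays with DFW in R, with 1 value per probe set and array. The log base is not stated and was taken from the range of 4.93 to 14.43. The raw images were not used here. DFW leaves the spread very unequal between probe sets, so that those that vary most come first and last in the ranking of Rank Products. Of 31099 probe sets, 57 controls were left out.

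Rank Products, named in the methods of the study, was written in Python 3.11.15 (numpy 2.4.6, pandas 2.3.3, scipy 1.17.1), with 9 differences, 100 permutations and an FDR threshold of 0.05. limma 3.58.1 in R 4.3.3 gave differences, SEs and Benjamini-Hochberg adjusted p values. Both were also run on simulated data, whose outcome is not given here. Symbols came from the array annotation (20826 probe sets with 1 symbol), and each gene was represented by its probe set with the highest mean. The 10 genes and the 14 gene lists were chosen with earlier results of these data known. Named were the 10 genes, the called genes of each list (at most 4) or otherwise the 2 with the largest difference, 12 fixed relatives, and the 6 genes most like the mean of the 10. Genes named for lying wholly below the sham rats, and Hemgn, Hbb, Ahsp and Epb42, were chosen after their values were seen. Positions and windows came from RefSeq tables of GRCr8. Alternatives were limma, a replicate block, an FDR of 0.01, the brighter 15521 probe sets, quantile normalization, centring, the use of all probe sets of a gene and the omission of 1 rat at a time. The use of 1000 permutations and all alternatives for the calls of the 10 genes were added after the data were seen.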

Additional observations from a re-analysis of the deposited data

How the results depend on the processing

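The count of the 10 genes called lower was 6 when the dimmer probe sets were left out, 3 both at an FDR of 0.01 and after quantile normalization, and 0 with limma, with or without the replicate block. Leaving out 1 rat gave 1 to 10, while the share of all probe sets called lower was 0.0419% to 1.09%, against 0.561% with all rats. The median difference of the 10 genes was -0.0018 with the mean of all probe sets of a gene and -0.00469 to -0.00222 when rats were left out. The genes with every MCAO rat below every sham rat numbered 1 after quantile normalization (0.512% of all probe sets) and 6 to 9 when rats were left out, where 6.36% to 10.3% of all probe sets were so placed, against 3.6% with all rats. Of the other late erythroid genes, 2 were called lower after quantile normalization and 1 with Rank Products on same-numbered pairs as a replicate block. Leaving out 1 rat gave 0 to 6, with 6 without MCAO rat 1 (0.821% of all probe sets) and 3 without MCAO rat 3 (1.09%). Called higher were 0 with limma with or without the replicate block, with the brighter 15521 probe sets, at an FDR of 0.01 and after quantile normalization, 2 with any probe set of a gene, and 0 to 1 when rats were left out. Their median difference was 3.3965e-06 with the arrays centred. With 1000 permutations, these counts were 10, 0 and 1 as with 100, while 190 probe sets in all were called lower. Of 60 single differences, 21 turned sign under at least 1 alternative. Of these, 18 were not called in the first place, and the called ones were Eif2ak1 (0.000207 after quantile normalization), Csf3r (-0.00607 to 0.0270 when rats were left out) and S100a9 (-0.0241 to 0.0254). In these cases the cause was not tested. The labels number the rats in each group and name no pairing between groups. Deviations of same-numbered rats correlated at -0.419, -0.851 and -0.899, from which no conclusion on pairing is drawn. With the replicate block in Rank Products, 8 of the 10 genes were called. After quantile normalization the correlations within groups had a value for 36 of the 45 pairs. The deposited values carry no estimate of background, so signal over background is unknown.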
